A study of Homo sapiens with 2 samples.

Results

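NRF1 peaks at the start sites of long noncoding RNAs (lncRNAs) are the 217 peaks, of 5683 in the deposited list, whose centre lay within 2 kb of the transcription start site (TSS) of a gene that GENCODE types as lncRNA. They lay more than 2 kb from every TSS of a protein-coding gene and were not among the 812 peaks found, by their coordinates, in the list of sites within 2 kb of a TSS that goes with the study. That list is longer than the number of such sites in the text of the study, and the sources used here do not say why. They make up 3.82% of all peaks (95% Wilson interval 3.35 to 4.35). Their positions on hg19 chose them, so that score, width and sequence were not used by the rule. The peaks come from chromatin immunoprecipitation with an antibody against NRF1 and sequencing (ChIP-seq) of HCT116, a line derived from a human colorectal carcinoma, kept for 16 h in the proteasome inhibitor MG132 at 1 µM. The input library of MG132-treated cells was not analysed here. The ChIP library has no replicate and no untreated counterpart, so that no value has a replicate error, no p-value is given, and nothing here separates binding with MG132 from binding without it. The read depth behind a peak is unknown. Intervals of shares (Wilson) and of differences between shares (Newcombe) are at 95% and cover counting error only.

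NRF1 is the product of NFE2L1, a transcription factor of the cap'n'collar family, and is not nuclear respiratory factor 1, which has the same short name. It is made as a protein of the endoplasmic reticulum, is degraded while the proteasome works, and moves to the nucleus when the proteasome is inhibited. There it pairs with small MAF proteins and binds the antioxidant response element (ARE), through which it raises proteasome genes. A lncRNA start site can be the promoter of a transcript that is never translated. It can also lie in an enhancer of a neighbouring protein-coding gene, since enhancers are often transcribed. Peak positions do not tell these apart, and RNA was not measured in these data.

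An ARE was searched on both strands as TGACNNNGC or TGAGNNNGC, the form bound by this family. A full ARE was counted where the 9 bases read TGACTCAGC or TGAGTCAGC. Each full ARE holds the AP-1 site TGACTCA or TGAGTCA, to which FOS and JUN proteins bind, so that the letters alone do not tell the factors apart. An ARE lay in 195 of the 217 lncRNA start-site peaks (89.9%, 85.1 to 93.2), against 87.4% of all peaks. A full ARE lay in 135 (62.2%, 55.6 to 68.4), against 61.3% of all peaks. The lncRNA start-site peaks thus held both forms about as often as the peak list as a whole. The sequences printed first are the full AREs nearest to the centre of 10 of the highest peaks, of a pair of peaks centred within 5 bp of a TSS, and of the LINC-PINT peak. Each runs 5′ to 3′ on the strand of its ARE, with 15 bases on both sides and the ARE in capitals.
ENSG00000282602, chr22:35767997-35768035, minus strand: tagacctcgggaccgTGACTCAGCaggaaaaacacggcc
ENSG00000282041, chr22:35773134-35773172, minus strand: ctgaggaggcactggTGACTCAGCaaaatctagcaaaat
ENSG00000260777, chr17:26594621-26594659, plus strand: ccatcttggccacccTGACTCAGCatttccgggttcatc
ENSG00000224000, chr1:172876543-172876581, plus strand: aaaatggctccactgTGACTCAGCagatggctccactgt
ENSG00000232194, chr1:167789347-167789385, plus strand: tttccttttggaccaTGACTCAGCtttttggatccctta
ENSG00000267737, chr17:76311856-76311894, plus strand: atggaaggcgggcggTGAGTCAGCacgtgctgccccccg
ENSG00000224409, chr1:33190928-33190966, plus strand: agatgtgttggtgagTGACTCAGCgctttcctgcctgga
ENSG00000247033, chr16:75143002-75143040, minus strand: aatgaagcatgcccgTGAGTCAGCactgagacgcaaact
ENSG00000266401, chr18:3653030-3653068, plus strand: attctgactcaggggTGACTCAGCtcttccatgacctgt
ENSG00000287507, chr21:45188209-45188247, plus strand: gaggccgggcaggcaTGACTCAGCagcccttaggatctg
LINC01275, chr20:48782822-48782860, minus strand: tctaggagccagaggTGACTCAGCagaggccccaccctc
MIR100HG, chr11:122051203-122051241, plus strand: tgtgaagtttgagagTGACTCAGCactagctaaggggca
LINC-PINT, chr7:130569922-130569960, plus strand: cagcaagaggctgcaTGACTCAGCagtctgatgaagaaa

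The 13 sites share the same 9 bases but for position 4, and their surroundings differ from gene to gene. Degenerate sites keep TGAC or TGAG and GC but not the bases between. They stand in 60 members that have no full ARE (27.6%), against 26.1% of all peaks. A few of them are shown because they lie at genes described further on, the first being the highest peak without a full ARE.
ENSG00000286153, chr21:36208521-36208559, minus strand: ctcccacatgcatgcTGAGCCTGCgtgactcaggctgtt
ENSG00000289637, chr6:31789978-31790016, minus strand: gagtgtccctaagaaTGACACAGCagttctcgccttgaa
ITGB1-DT, chr10:33269549-33269587, minus strand: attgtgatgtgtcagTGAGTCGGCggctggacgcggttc
LINC00511, chr17:70477889-70477927, minus strand: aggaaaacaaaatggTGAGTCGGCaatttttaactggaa
ENSG00000271398, chr1:28575349-28575387, plus strand: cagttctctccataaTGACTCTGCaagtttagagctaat

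The peaks gathered at the upstream edge of the transcripts. Of the 217 centres, 123 lay upstream of the nearest lncRNA TSS (56.7%, 50 to 63.1) and 94 downstream, with a median distance of 687 bp. The 250 bp just upstream of the TSS held 50 peaks (23%, 17.9 to 29.1), and the 250 bp just downstream held 21. The other bins of 250 bp within 4 kb held 4 to 20 peaks each. For the 151 members whose nearest TSS is the canonical start of its gene, 38 lay in the 250 bp upstream (25.2%, 18.9 to 32.6). Only the transcript with the nearest TSS was used to place a centre, so that one outside it may lie in another transcript of the gene. By that transcript, 134 centres lay outside, 51 in an intron, of which 49 are in intron 1, and 32 in an exon, of which 25 are in exon 1. The pile-up at the TSS is thus also seen in the members whose nearest TSS is canonical. The other members were left out of that count, and their distances to a canonical start were not measured.

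**Figure D1:**
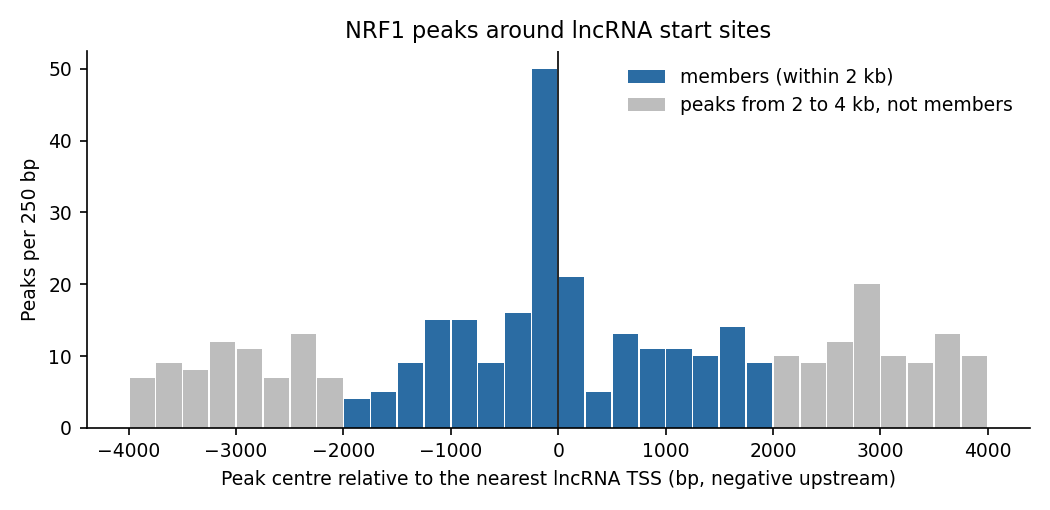
Number of NRF1 peaks (y axis) in bins of 250 bp by the distance of the peak centre from the nearest lncRNA TSS (x axis, bp, negative is upstream on the strand of the lncRNA). Blue bars are the 217 members and grey bars are peaks between 2 and 4 kb away that the rule leaves out, and the bin just upstream of the TSS stands out with 50 peaks.

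Peaks next to the TSS also had a higher median score. MACS gives each peak a score of 10 times the negative log10 of its p-value, which ranks the peaks within this library. The 71 members within 250 bp of a TSS had a median score of 122.34 and a median width of 563 bp. The 69 members beyond 250 and up to 1000 bp had a median score of 98.19, and the 77 beyond 1000 bp one of 96.25. The quartiles overlapped widely, from 75.34 to 211.39 next to the TSS and from 63.16 to 149.51 beyond 1000 bp. The share with a full ARE did not rise with the score in these groups, at 59.2% (47.5 to 69.8), 60.9% (49.1 to 71.5) and 66.2% (55.1 to 75.8) from near to far. At the limit of the rule, the members just inside were centred 1977 bp from the TSS of ENSG00000260757, 1971 bp from that of FGF14-AS1 and 1970 bp from that of ATP13A3-DT, with scores of 169.89, 172.76 and 71.12. The peaks just outside were centred 2004, 2016 and 2069 bp from the TSSs of BCAN-AS2, ENSG00000257830 and LINC02777, with scores of 96.99, 52.93 and 60.06.

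Over all members the score ran from 50.00 to 1008.48, with a median of 103.81 and quartiles of 69.86 and 169.89. The median was 91.86 over all peaks, 99.34 over the listed sites within 2 kb of a TSS, 96.81 over the other peaks within 2 kb of a protein-coding TSS, and 89.84 over the remaining 4264 peaks. A score of at least 100 was reached by 113 members (52.1%, 45.4 to 58.6), against 44.3% of all peaks. That share was 9.5 percentage points above the remaining peaks (2.8 to 16.3), while the difference from the listed sites was 2.2 points (−5.3 to 9.6). Members took 4 of the 100 highest places in the whole list, 19 of the 500 highest and 43 of the 1000 highest, shares close to their 3.82% of the list. The median width was 516 bp, beside 501 bp for all peaks.

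**Figure D2:**
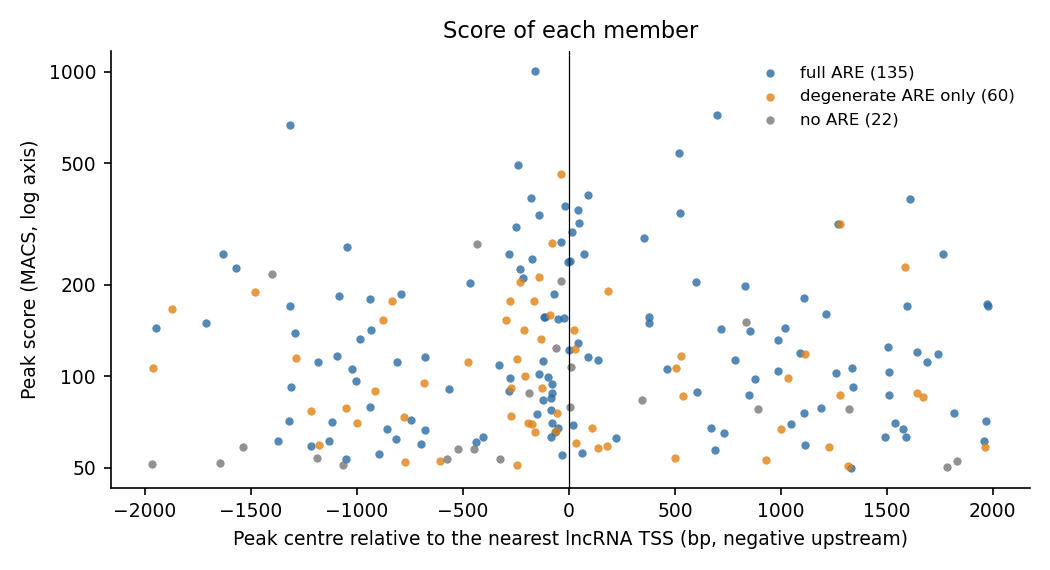
MACS score of each of the 217 members (y axis, log axis) against the distance of its centre from the nearest lncRNA TSS (x axis, bp, negative is upstream). Colours mark members with a full ARE (135), with degenerate AREs only (60) and with none (22), and the highest point is the peak of 1008.48 at −162 bp.

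Peaks with a full ARE had a higher median score than those without. The median score was 113.04 for the 135 members with a full ARE, 91.52 for the 60 with degenerate AREs only and 68.14 for the 22 with none. A score of at least 100 was reached by 59.3% (50.8 to 67.2), 45% (33.1 to 57.5) and 27.3% (13.2 to 48.2) of them. The sets overlapped, with highest scores of 1008.48, 461.85 and 272.20. Among the parts of the transcript with the nearest TSS, the 32 peaks in exons had a median score of 125.60, the 51 in introns 103.81 and the 134 outside 97.56. A full ARE was held by 62.5%, 72.5% and 58.2% of these.

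AREs were far more frequent in the peak than beside it. In flanks of equal length that start 2 kb away, 73 of 217 held an ARE (33.6%, 27.7 to 40.2) and 3 held a full ARE (1.38%, 0.471 to 3.99). Taken in pairs, 131 members held an ARE in the peak but not in the flank, and 9 the other way round. For the full ARE these counts were 133 and 1. The full ARE also set the lncRNA start-site peaks apart from the sites listed by the study within 2 kb of a TSS. It lay in 33.7% of the listed sites, 28.5 percentage points below the lncRNA start-site peaks (21.1 to 35.4), while for any ARE the difference was 5.7 points (0.5 to 10.0). Against the remaining peaks, more than 2 kb from these TSSs, the difference in full AREs was −4.1 points (−10.9 to 2.2), and against the other peaks near protein-coding TSSs it was −1.4 points (−9.4 to 6.5). Both of these intervals include 0 and neither reaches the gap to the listed sites. For degenerate AREs alone, the lncRNA start-site peaks differed from the remaining peaks by 6.1 points (0.5 to 12.5). The difference was 3.3 points (−3.8 to 10.8) from the other peaks near protein-coding TSSs and −22.7 points (−29.2 to −15.5) from the listed sites. The share was 27.6% in the lncRNA start-site peaks, close to the 26.1% of all peaks.

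**Figure D3:**
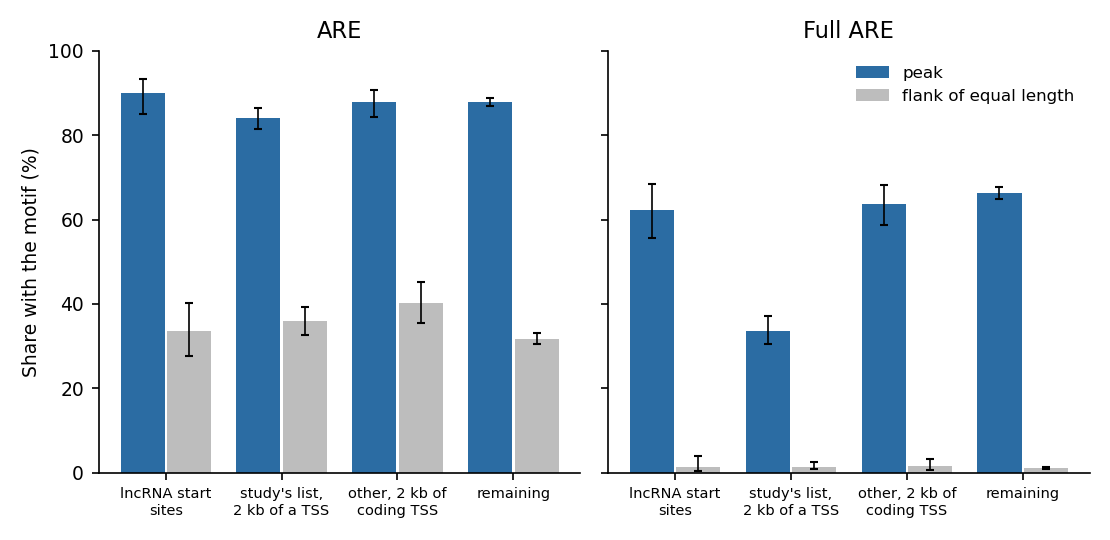
Share (y axis, %) of peaks with an ARE (left) and with a full ARE (right) for the 4 classes of peak on the x axis. Blue bars are peaks, grey bars are flanks of equal length and whiskers are 95% Wilson intervals, and the full ARE separates the listed sites (33.7%) from the lncRNA start-site peaks (62.2%).

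Base composition also differed between the lncRNA start-site peaks and the listed sites, but little from the other peaks near protein-coding TSSs. The median GC content was 48.2% in the lncRNA start-site peaks and 58.1% in the listed sites. It was 47.4% in the other peaks near protein-coding TSSs and 43.8% in the remaining peaks. CpG dinucleotides numbered 1.33 per 100 bp (median), beside 4.90 in the listed sites. They numbered 1.17 in the other peaks near protein-coding TSSs and 0.87 in the remaining peaks. Within the lncRNA start-site peaks, a full ARE lay in 70.8% of the 72 with the fewest CpGs (59.5 to 80.1), in 65.3% of the 72 in the middle (53.8 to 75.2) and in 50.7% of the 73 with the most (39.5 to 61.8). CpG content therefore moves with the difference in full AREs between classes, and its part in that difference was not tested.

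The site itself lay near the middle of the peak, as it did over the peak list as a whole. With a full ARE taken first where there was one, its median distance from the centre was 34 bp in members and 31 bp in all peaks. The ARE nearest to the centre, full or degenerate, was a median of 29 bp from it, and in 143 of the 195 members with an ARE (73.3%) it lay within 50 bp. It lay within 100 bp of the lncRNA TSS in 33 members. It pointed the same way as the lncRNA in 95 members and the opposite way in 100. It was a full ARE in 120 members, with TGACTCAGC in 90 and TGAGTCAGC in 30, and 15 of the 135 members with a full ARE had a degenerate site nearer to the centre. The commonest degenerate form was TGACACAGC, in 10 members. In all, the nearest sites took 43 forms, of which 24 were seen in a single member. Counted from the T that opens the ARE, position 5 was T in 76.4% (70 to 81.8), position 6 was C in 81.5% (75.5 to 86.4) and position 7 was A in 76.9% (70.5 to 82.3). The listed sites had these bases in 56.2%, 62.1% and 60.6%, and the remaining peaks in 81.1%, 80.9% and 84.8%. These are the bases of the full ARE, so that the comparison restates in part the shares with a full ARE. In 194 sites with both neighbouring bases in the peak, the base after the ARE was A in 63.9% (56.9 to 70.3), against 75.8% in the remaining peaks, and the base before it was A in 52.1% (45.1 to 59), against 60.9%.

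**Figure D4:**
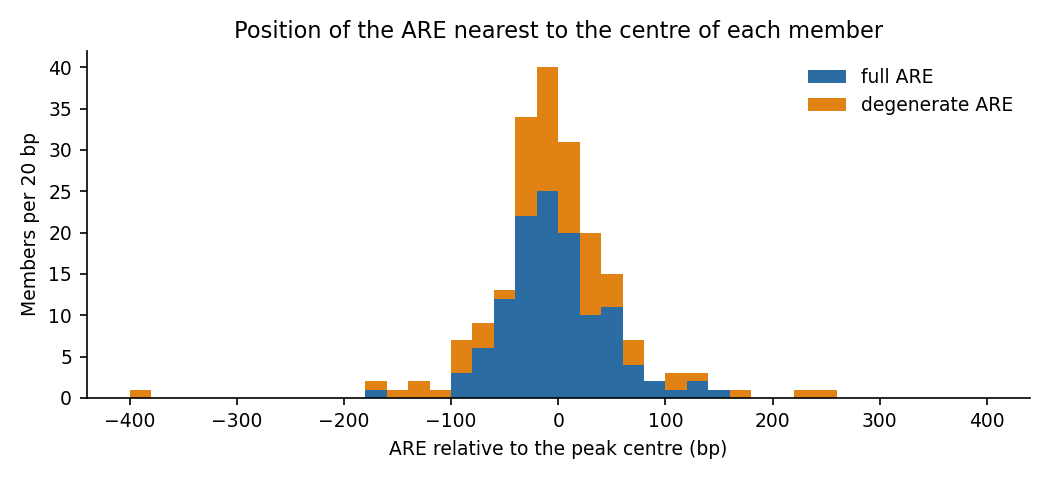
Position of the ARE nearest to the centre of each of 195 members (x axis, bp from the peak centre) and number of members in bins of 20 bp (y axis). Blue is a full ARE and orange a degenerate one, and both pile up at the centre, with a median distance of 29 bp.

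The highest members stood upstream of HMOX1, which encodes heme oxygenase 1, the enzyme that opens the heme ring and a textbook ARE gene. The peak at chr22:35767489-35768521 had a score of 1008.48, the highest of the members and rank 10 of all peaks. Its centre lay 162 bp upstream of the TSS of the lncRNA ENSG00000282602 and 9084 bp upstream of the canonical HMOX1 TSS. The peak at chr22:35772695-35773531 had a score of 721.89, rank 39. It was centred 698 bp downstream of the TSS of ENSG00000282041, in exon 1, and 3976 bp upstream of that of HMOX1. Both lncRNAs run on the strand of HMOX1. The first peak held 3 full AREs, spaced 58 and 29 bp apart, and the second held 1. They are printed on the plus strand, where the full ARE of the minus strand reads GCTGAGTCA, in capitals.
ENSG00000282602, chr22:35767992-35768127, plus strand: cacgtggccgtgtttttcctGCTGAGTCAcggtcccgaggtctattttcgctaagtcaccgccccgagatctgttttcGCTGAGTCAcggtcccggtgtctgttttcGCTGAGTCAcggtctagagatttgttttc
ENSG00000282041, chr22:35773089-35773217, plus strand: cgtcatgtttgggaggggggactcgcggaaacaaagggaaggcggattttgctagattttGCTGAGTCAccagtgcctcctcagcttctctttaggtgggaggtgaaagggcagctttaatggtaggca

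In the first stretch the bases around each of the 3 full AREs resemble one another, and a degenerate site of the same spacing, TGACTTAGC on the minus strand, stands among them. These peaks are thus placed at lncRNA starts by the annotation, and lie also where enhancers of HMOX1 are known.

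**Figure D5:**
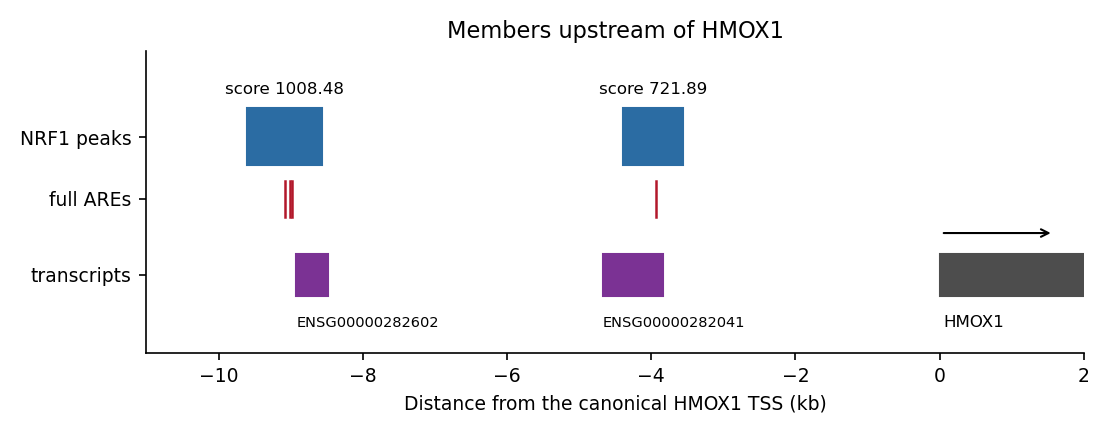
Map of the region upstream of HMOX1 (x axis, kb from the canonical HMOX1 TSS), with NRF1 peaks and their scores on the top row, full AREs as red ticks, and transcripts on the bottom row, where HMOX1 runs on past the right edge. The peak of 1008.48 covers the start of ENSG00000282602, with its 3 full AREs just before that start, and the peak of 721.89 covers the end of ENSG00000282041.

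The lncRNA gene ENSG00000260777 on chromosome 17 held the most AREs of all members. Its upstream peak, chr17:26593652-26595774, had a score of 668.85 (rank 49) and 11 full AREs. The peak at chr17:26592235-26593512, in exon 1, had a score of 342.89 (rank 310) and 6 full AREs. The full AREs were 124 to 357 bp apart. In the upstream peak 7 of them, and in the other 4, were palindromes of 11 bases, GCTGACTCAGC on the plus strand, which read as a full ARE on both strands. A stretch of each peak is shown, with the palindromes in capitals.
ENSG00000260777, chr17:26593741-26593990, plus strand: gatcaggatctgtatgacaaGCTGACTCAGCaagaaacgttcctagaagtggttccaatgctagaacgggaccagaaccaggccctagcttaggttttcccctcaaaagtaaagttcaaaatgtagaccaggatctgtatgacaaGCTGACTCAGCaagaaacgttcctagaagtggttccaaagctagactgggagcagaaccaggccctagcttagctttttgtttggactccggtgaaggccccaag
ENSG00000260777, chr17:26592386-26592635, plus strand: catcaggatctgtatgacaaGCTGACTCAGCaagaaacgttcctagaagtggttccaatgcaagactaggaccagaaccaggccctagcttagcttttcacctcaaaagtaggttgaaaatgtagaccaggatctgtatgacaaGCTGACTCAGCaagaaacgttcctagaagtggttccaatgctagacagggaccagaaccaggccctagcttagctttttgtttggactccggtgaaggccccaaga

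The stretches are near-copies of each other and of themselves, so that reads of one copy may have been placed in another. Whether they were was not tested. In all, 6 members held a palindrome (2.76%, 1.27 to 5.9), against 1.02% of all peaks, and 9 held 2 or more full AREs (4.15%, 2.2 to 7.69), against 3.44% of all peaks. Among them were ENSG00000224000 (541.57), where a pair of full AREs lies 5 and 28 bp past the centre, and ENSG00000285016 (298.46), centred 14 bp into its first exon.

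The remaining peaks among the 12 highest lay at lncRNAs known by an identifier alone. ENSG00000232194 (495.5, 241 bp upstream of its TSS) runs antisense within ADCY10, the soluble adenylyl cyclase. ENSG00000286153 (461.85, 39 bp upstream) lies antisense within RUNX1, a transcription factor of blood formation, and held no full ARE. ENSG00000267737 (394.5, 90 bp downstream of its TSS, in intron 1) has SOCS3, a brake on cytokine signalling, as its nearest coding neighbour by TSS. ENSG00000224409 (384.82) was centred 178 bp upstream of its TSS and ENSG00000247033 (382.02) 1607 bp downstream, in exon 2 and antisense to ZNRF1, a ubiquitin ligase gene. ENSG00000266401 (362.36, 18 bp upstream) lies antisense within DLGAP1, and ENSG00000287507 (351.74, 44 bp into exon 1) has CSTB, the gene of the protease inhibitor cystatin B, as its neighbour. Of these 12 peaks, 11 held a full ARE.

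A trio of members on 3 chromosomes held near-copies of one sequence, joined because pairs of them share at least 5 stretches of 30 bases. They are shown with 20 bases on both sides of the ARE, which is in capitals. Of the 49 positions 48 were identical in all 3. In the list, 17 peaks, these 3 among them, held at least 5 stretches of 30 bases found anywhere in the peaks of the trio. Whether the other 14 hold the printed bases was not tested.
ENSG00000230423, chr6:170925599-170925647, minus strand: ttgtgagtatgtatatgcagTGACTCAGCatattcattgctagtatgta
LINC02193, chr16:90254593-90254641, minus strand: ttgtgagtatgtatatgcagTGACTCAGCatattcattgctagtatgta
ENSG00000291147, chr2:243074993-243075041, minus strand: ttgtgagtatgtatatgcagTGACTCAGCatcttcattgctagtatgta

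The trio lay 189, 100 and 124 kb from the end of chromosomes 6, 16 and 2. The scores of 181.18, 131.36 and 103.81 may hold reads of one another, which was not tested.

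By name, 148 of the 217 members had a nearest lncRNA known by its identifier alone, 30 lay at LINC genes, 16 at genes named antisense to a coding gene, 6 at divergent transcripts, 5 at microRNA host genes and 12 at genes with other names. The share of each kind among all lncRNA genes was not counted, and the rule leaves out peaks on the list of the study. The counts by name therefore show no preference for a kind of gene. The median score was 157.07 at the antisense names, among them BCAN-AS2 (339.46), CYYR1-AS1 (276.3), FLG-AS1 (274.35) and MCPH1-AS1 (272.2), and 99.48 at identifiers alone. Among the divergent transcripts, UBE2H-DT, named after a gene of ubiquitin conjugation, scored 317.14 with no full ARE. These genes were picked after the values were seen, the 16 and 6 peaks are few, and their quartiles of 84.84 to 200.74 and 97.58 to 252.62 overlap those of the whole.

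MIR100HG, host of the microRNAs miR-100, let-7a-2 and miR-125b-1, had a pair of members. One was centred 4 bp upstream of a TSS, with a score of 236.48 and 2 full AREs, and the other 852 bp downstream of another TSS, in intron 1, with 141.24 and 1 full ARE. The other microRNA host genes had low peaks without any ARE, with 57.64 at MIR9-1HG, 52.03 at MIR200CHG, the host of miR-200c and miR-141, and 51.29 at MIR23AHG. Further genes with a pair of members were LINC02331 (224.27 and 75.94), ITGB1-DT (176.94 and 52.43, both with degenerate AREs only), ENSG00000224649 (63.12 and 50.00) and ENSG00000260777. The members nearest to a TSS were ENSG00000227400, centred 1 bp upstream with 122.34, LINC01275, 3 bp downstream with 239.53, and the MIR100HG peak at 4 bp.

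Of 30 lncRNAs chosen as stress-responsive or abundant, 29 were annotated and 6 had any peak within 2 kb of a TSS, namely GAS5, LINC-PINT, LUCAT1, MIR22HG, NORAD and SNHG3. Over all lncRNA genes, 2.69% had any peak and 1.2% had a member. The member among these was LINC-PINT, a p53-induced lncRNA, with a score of 111.56. Its peak was centred 810 bp upstream of a TSS that is not the canonical start of the gene. The full ARE in it lay 764 bp upstream of that TSS. Of 32 lncRNAs linked to cancer or development, 29 were annotated and 7 had any peak, and 4 had a member. These were PVT1 (318.06), MIR100HG, CASC19 (150.23, no ARE) and LINC00511 (86.53, no full ARE). Both lists were drawn up with earlier results of these data known, so that their counts cannot show an excess over all lncRNA genes.

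Chromosome 8 carried 22 of the 217 members (10.1%, 6.79 to 14.9), against 5.21% of the 5466 other peaks, a difference of 4.9 points (1.5 to 9.7). It was singled out after the counts by chromosome were seen. Their median score was 97.38 and 14 held a full ARE. Within 1 Mb of the TSS of MYC, the growth-promoting transcription factor, lay 20 peaks, of which 4 were members. PVT1, a gene that begins downstream of MYC, had its peak 48 bp past a TSS, in exon 1 of that transcript and 118.3 kb from the MYC TSS, with 1 full ARE. CASC19 and PCAT1 lay 513.4 and 441.6 kb on the other side, with 150.23 and 52.59 and no ARE, and LINC00824 lay 692.1 kb away with 60.68. Chromosome 21 held 6 members (2.76%), against 0.862% of all peaks. No member lay on chromosome X, which held 56 peaks (0.985% of all peaks), where few would be expected with members at 3.82% of the list. Copy number along the chromosomes was not measured, and its part in these counts was not tested.

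The 22 members without an ARE were mostly low, but 6 reached 100. The highest were MCPH1-AS1 (272.2), ENSG00000289473 (216.44), ENSG00000261392 (205.93), CASC19 (150.23) and ENSG00000290116 (124.09). ENSG00000261392 was centred 37 bp upstream of its TSS and ENSG00000290116 63 bp upstream. In 27 members (12.4%) an AP-1 site stood without a full ARE, against 13.7% of all peaks.

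Most members were centred outside coding genes, though 132 (60.8%) had a coding TSS within 50 kb. The counts in this paragraph were not made for the other classes of peak. The centre was outside every protein-coding gene in 167, antisense within one in 43 and sense in 7. The nearest coding TSS was a median of 32219 bp away (quartiles 10855 and 76431 bp), with 19 within 5 kb, 50 within 10 kb and 46 beyond 100 kb. The rule sets the lower end of these distances at 2 kb. The nearest other peak was a median of 63416 bp away, and 22 members had one within 5 kb.

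Genes of the stress response were among the coding neighbours, and the following were picked after the values were seen. The pair at ENSG00000224649 lay 5872 and 7605 bp upstream of a TSS of BACH1, which encodes a repressor that competes for AREs, and 110723 and 112456 bp upstream of its canonical TSS. ENSG00000289637 (176.32, no full ARE) lay 5496 bp upstream of HSPA1B, a heat-shock protein 70 gene. ENSG00000271398 (85.51, no full ARE) lay 10702 bp upstream of SESN2, a stress-induced regulator of growth signalling. LINC02561 (184.07, 1 full ARE) lay 75483 bp past the TSS of AKR1C4, an aldo-keto reductase. ENSG00000290106 (86.83, 1 full ARE) lay 295365 bp upstream of NFE2L3, a relative of NFE2L1. These distances place the peaks and do not assign a target.

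Seen from the annotation, few lncRNA genes had a peak near a start. Of 18702 lncRNA genes, 224 had a member within 2 kb of a TSS (1.2%, 1.05 to 1.36) and 504 any peak (2.69%, 2.47 to 2.94), against 1215 of 20176 protein-coding genes (6.02%, 5.7 to 6.36). Any TSS of a gene counts here, and the protein-coding genes have 146319 distinct TSSs, against 47639 for the lncRNA genes. The shares per gene therefore do not compare the classes start by start. A window of 516 bp around a lncRNA TSS held an ARE by sequence alone in 39% (38.2 to 39.8) of 13635 starts and a full ARE in 1.7% (1.5 to 1.93), well below the 89.9% and 62.2% of the members. At 19862 protein-coding starts these were 46.7% and 1.04%. Among lncRNA genes away from coding starts, 1497 had a full ARE within 2 kb of a TSS, and 128 of these had a member (8.55%, 7.24 to 10.1). Among the 12152 without one, 72 had a member (0.592%, 0.471 to 0.745). Most lncRNA genes with a full ARE nearby thus had no member. A peak on the list of the study is not a member, so that a gene with such a peak can count here as without one. Every TSS of a gene was searched, so that more TSSs give more room for both a full ARE and a member. The member need not hold the full ARE that was counted.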

How the data were processed

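NRF1 was immunoprecipitated from HCT116 cells, and 1 ChIP library was analysed. Per the submitters' processing notes, reads were aligned with Bowtie2 2.2.6 and peaks called with MACS 1.4.2 on hg19. The authors deposited the position and score of each peak. The MACS settings and the control used for calling are not given in the sources used here. Members and lists were chosen with earlier results of these data known. Genes named are the 12 highest peaks, those at listed or microRNA host genes, the 3 nearest to a TSS, the 5 with most full AREs, the 5 highest without an ARE, those at the 2 kb limit and genes with 2 or more members. Others were picked after values were seen. TSSs came from GENCODE release 44 lifted to hg19, and sequence from the same build. AREs were counted in 5673 peaks, and 5 peaks on unplaced contigs and 5 with undetermined bases, none of them members, were left out. Sites that overlap on both strands count as 1. Repeat content, which had been planned, was not computed, since the genome used here does not mark repeats. The sites listed by the study served to define a class, by coordinates. The sequence of some other members is not reported here. The search was tested on simulated data. Python 3.11.15, pandas 2.3.3, scipy 1.17.1, pysam 0.24.0 and matplotlib 3.10.9 were used. Alternatives were distances taken to the edge of a peak, a lncRNA window of 1 kb, scores of 100 or more, basic transcripts, a coding limit of 5 kb, merged peaks, the central 200 bp and the other flank.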

Additional observations from a re-analysis of the deposited data

How the results depend on the processing

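Of 33 values recomputed under an alternative, 23 stayed within the counting interval of the reported value (for counts, within 1.5-fold) and 10 moved. Keeping scores of at least 100 left 113 members and 119 lncRNA genes, raised the share with an ARE to 94.7% and with a full ARE to 70.8%, and gave a median score of 159.83 and, in a setting chosen after seeing the data, a median width of 599 bp. A window of 1 kb left 140 members and 145 lncRNA genes, with 64.3% centred upstream. Searching the central 200 bp alone found an ARE in 80.6%. The fewer peaks, or the narrower sequence, follow from how these settings are built. Distances from the edge, basic transcripts, the coding limit of 5 kb, merging within 500 bp and the other flank kept every value they gave within the interval. Chosen after seeing the data, counting genes typed lincRNA gave 218 members. No paired analysis was possible because there is 1 library. Without replicates or depth, no value here has a biological error.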
